A study of Mus musculus with 48 samples.

Results

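The genes described are the mouse cytochrome P450 genes of families 1 to 3, chosen by symbol (Cyp followed by 1, 2 or 3, a subfamily letter and a number) and by level. The annotation of the array names 52 such genes on probe sets with 1 symbol, and 38 of them, in 13 subfamilies, had a mean log2 value of 5.46 or more, the 40th percentile of all probe sets. They are 38 of the 13542 genes that passed the same level. Cyp3a16 (mean 5.54) lay just inside that level and Cyp2b23 (mean 5.45) just outside, and the 14 genes below it, Cyp1a1 and Cyp1b1 among them, are not described further. A further 5 probe sets that carry a P450 symbol beside another symbol were left out.

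RNA came from the median liver lobe of F1 mice, male or female, at 3 weeks of age, and the 48 arrays make 6 groups of 8. WT_CD and WT_LPD are wild-type offspring. Their sires were fed, between 3 and 12 weeks of age, control chow (CD) or chow low in protein (LPD). ATF7HET_CD and ATF7HET_LPD are ATF7+/- offspring, and ATF7WT_CD and ATF7WT_LPD are ATF7+/+ offspring, of sires on the same 2 diets. ATF7 is a DNA-binding protein that belongs, with ATF2, to the factors that stress kinases phosphorylate. The offspring differ by the diet of the sire, the labels name no other agent or allele, they do not say how ATF7+/+ differs from wild-type, and they give no sex per animal. All values are the deposited RMA log2 expression values, so a difference of 1 is a doubling. Levels are compared only within a gene, since probe sets of different genes bind with different strength.

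P450 enzymes of families 1 to 3 are heme proteins of the endoplasmic reticulum that oxidize drugs, pollutants, steroids, bile acids and fatty acids, and most of their liver expression is in hepatocytes. They take electrons from P450 reductase and cytochrome b5. Ligand-activated factors set much of their transcription: the aryl hydrocarbon receptor for Cyp1 genes, CAR (Nr1i3) for Cyp2b genes and PXR (Nr1i2) for Cyp3a genes, and several members differ in level between adult male and female mice.

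Atf7 lay between 8.38 and 8.88 in the 16 ATF7+/- samples and between 8.84 and 9.59 in the 15 ATF7+/+ samples, a difference of -0.37 ± 0.06 (SE, limma adjusted p = 0.00124). Neither label passed against wild-type (8.72 to 9.15 in WT_CD, 8.68 to 8.94 in WT_LPD). ATF7+/- minus wild-type gave -0.20 ± 0.06 (limma adjusted p = 0.242) and ATF7+/+ minus wild-type gave 0.17 ± 0.06 (limma adjusted p = 0.191). Replicates 4 and 5 of WT_CD were near-identical, as were replicates 7 and 8 of ATF7WT_CD. Each such pair was averaged, so n = 7 in WT_CD and ATF7WT_CD and n = 8 in the other groups. The arrays also fell into 2 sets that the labels do not mention, seen in probe sets that have no listed gene: 18 arrays are called set A here and 30 are called set B, with 3 and 5 of them in every group. The mean of 3 Y-linked genes lay between 7.36 and 8.55 in 32 samples and between 3.74 and 4.19 in 14, with at least 1 sample of each kind in every group, and all 6 ATF7+/+ arrays of set A had the high level. Hepatocyte markers were high throughout: the mean of the 6 measured lay between 12.84 and 13.18 in every sample. Litters and sires are not named, so p-values measure only the spread between these samples, which the series calls biologically independent.

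**Figure D1:**
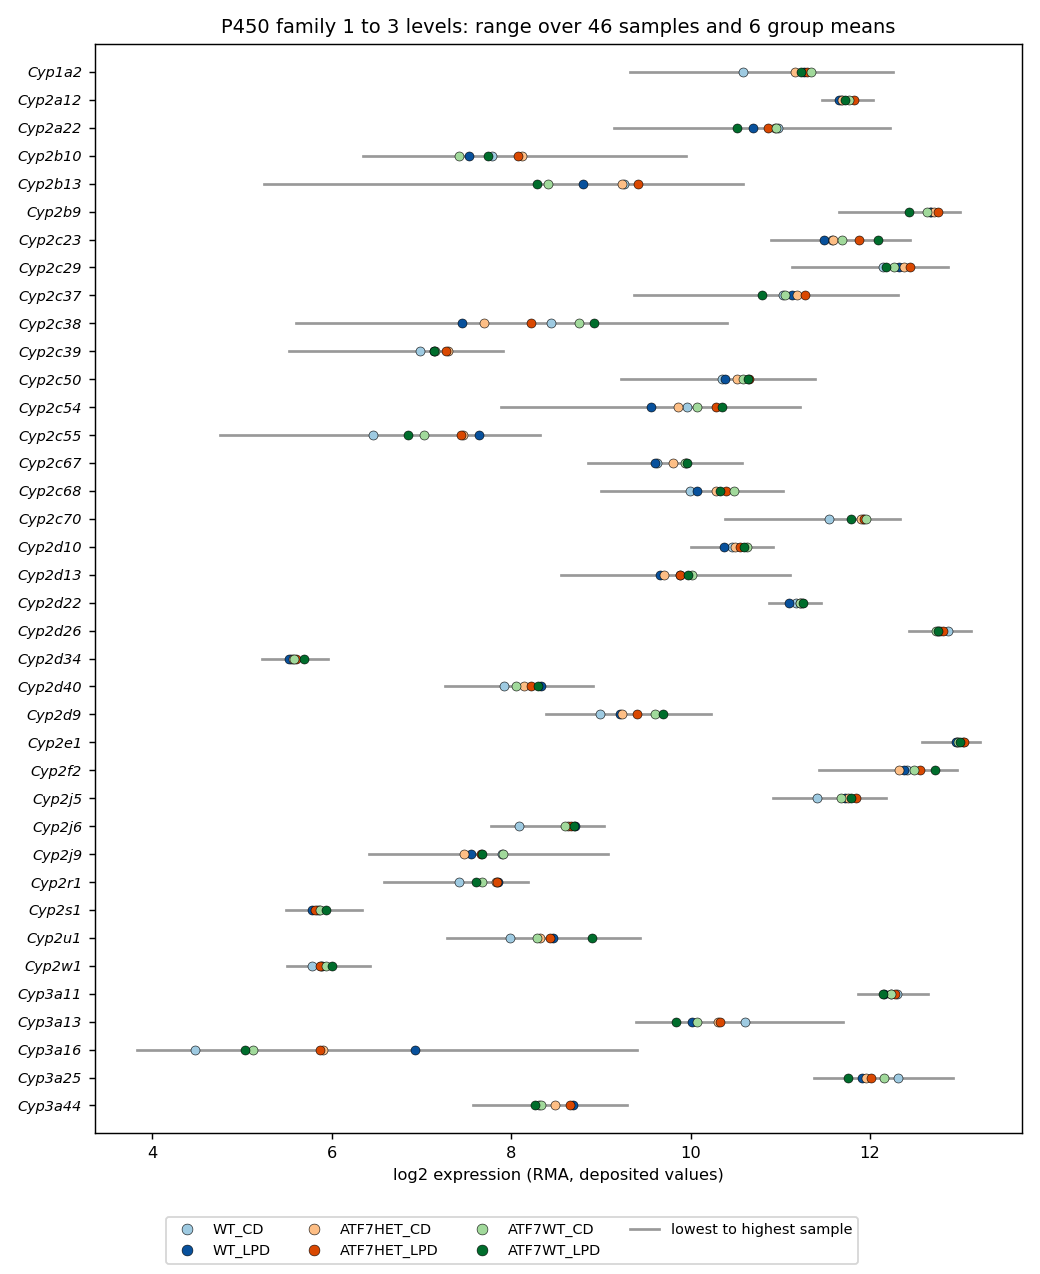
Log2 expression (horizontal axis) of the 38 P450 genes, one row per gene. Points are the means of the 6 groups and grey lines run from the lowest to the highest of 46 samples. Cyp2e1 and Cyp2a12 have short lines and group means that lie close together, while the line of Cyp3a16 runs from 3.83 to 9.40.

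The genes differed widely in how much they varied. Cyp2e1, the ethanol-oxidizing P450, had the smallest SD over the 46 samples (0.12), followed by Cyp2a12 (0.13) and Cyp2d22 (0.16). Cyp2e1 lay between 12.58 and 13.23 in every sample. The largest SDs were those of Cyp3a16 (1.52), Cyp2b13 (1.12), Cyp2c38 (1.06), Cyp2c54 (0.85) and Cyp2b10 (0.81), and most of that spread lay within the groups: the SD within groups was 1.38 for Cyp3a16, 1.09 for Cyp2b13 and 0.96 for Cyp2c38. Of each larger subfamily, the gene with the brightest probe set is described here, which ranks probe sets and not genes: Cyp2a12, Cyp2b9, Cyp2c29, Cyp2d26, Cyp2j5 and Cyp3a11. None of these passed the test in a diet or genotype comparison over all samples, with differences between the diets in wild-type liver of -0.03, -0.02, 0.17, -0.11, 0.32 and -0.15.

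In wild-type offspring, 3 P450 genes were higher and 1 was lower when the sire had eaten the low protein diet. Cyp2j6, Cyp2c55 and Cyp3a16 rose and Cyp3a13 fell. That is 4 of 38 genes (10.5%) at an adjusted p of 0.05, where 3.60% of all genes tested passed (2.78% higher and 0.812% lower). Cyp3a16 entered the list only through the WT_LPD samples: its mean over the other 40 arrays was 5.27, below the level, so the count cannot be read as a property of the family. The other 34 genes did not pass. The median difference of the 38 genes was -0.015 (all genes 0.00), and the median size of the difference was 0.23 (all genes 0.09). Without adjustment, 12 of 38 genes had a p under 0.05, against 15.9% of all genes.

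By subfamily, 1 of 3 Cyp2j, 1 of 11 Cyp2c and 1 of 5 Cyp3a genes rose (2.78% of all genes). The Cyp3a gene that rose was Cyp3a16, which reached the level only through WT_LPD. Another 1 of the 5 Cyp3a genes fell (0.812% of all genes). In the other larger subfamilies 0 of 7 Cyp2d, 0 of 3 Cyp2b and 0 of 2 Cyp2a genes passed. Counts this small cannot be read as properties of a subfamily. The differences ran from -0.99 to 1.19 in Cyp2c, from -0.22 to 0.41 in Cyp2d, from -0.46 to -0.02 in Cyp2b and from -0.28 to -0.03 in Cyp2a. Of the subfamilies with 1 gene, the differences were 0.68 for Cyp1a2, 0.49 for Cyp2u1, 0.44 for Cyp2r1, 0.11 for Cyp2w1, -0.01 for Cyp2e1, -0.03 for Cyp2f2 and -0.07 for Cyp2s1. None of these 7 passed.

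**Figure D2:**
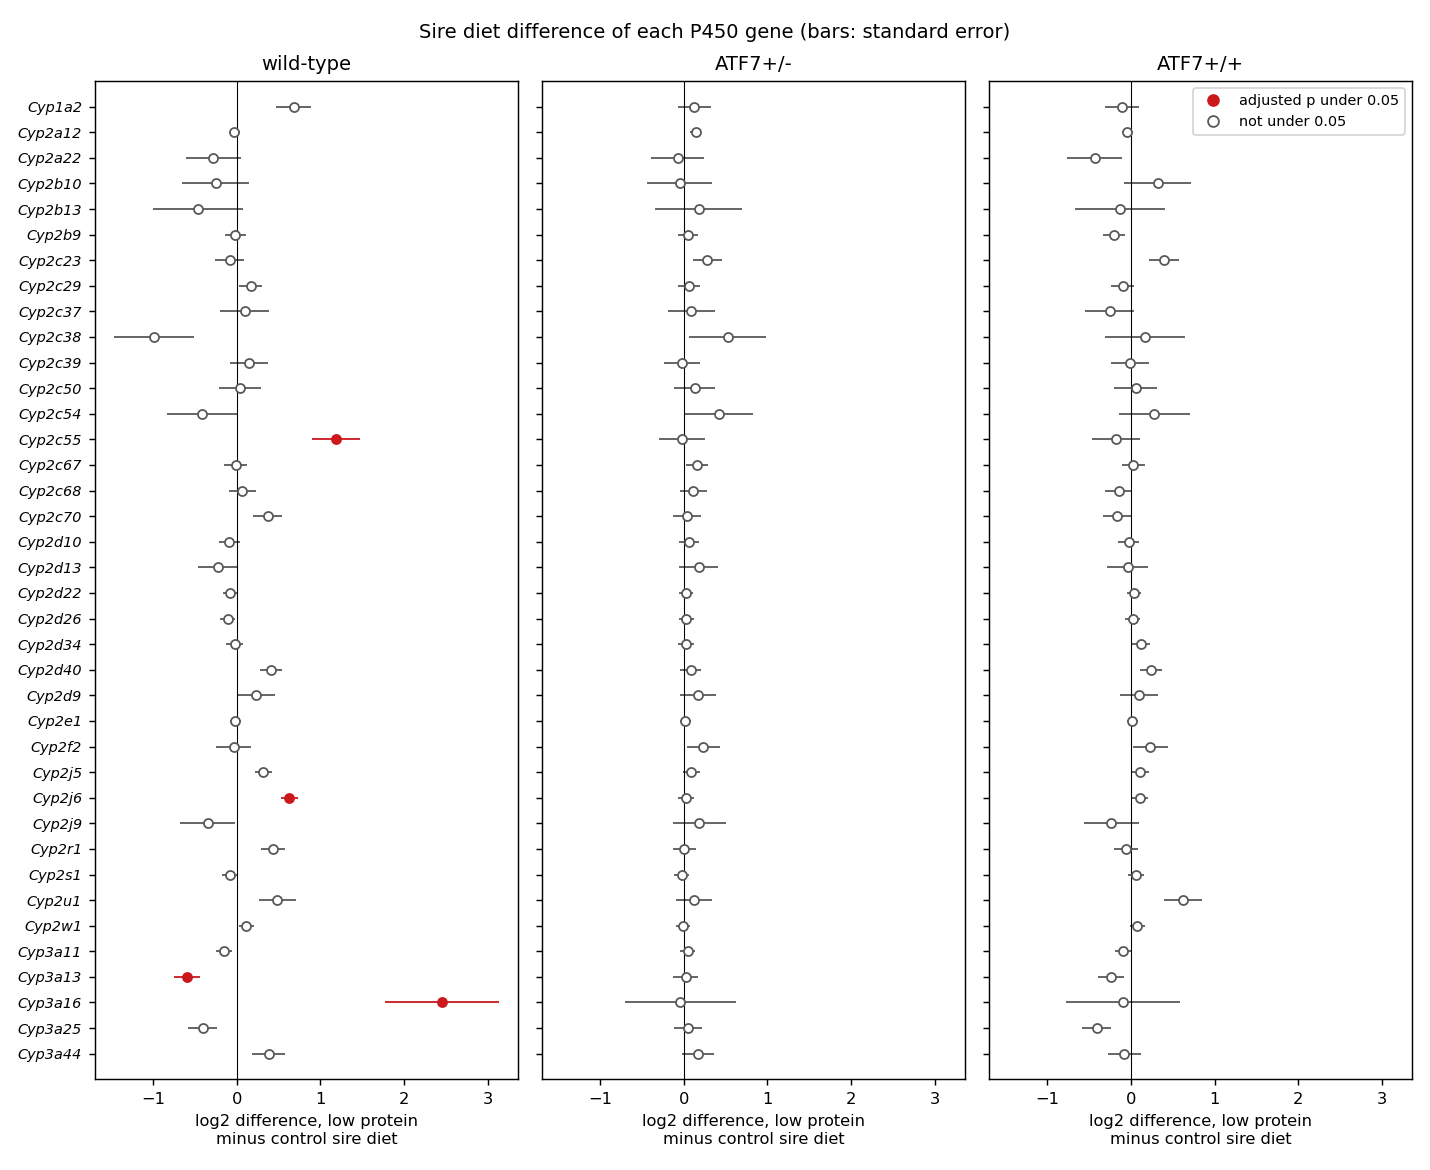
Difference in log2 expression, low protein minus control diet of the sire (horizontal axes), for each of the 38 P450 genes in wild-type, ATF7+/- and ATF7+/+ offspring. Bars are the standard error and filled red points have an adjusted p under 0.05; there are 4 in wild-type offspring, none in the other panels.

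Markers of other liver cells moved in the same comparison, where 2.78% of all genes passed as higher and 0.812% as lower. Of 7 stellate cell and fibroblast markers, 2 rose in WT_LPD (Acta2 by 0.67 and Lrat by 0.53). The mean of the 7 ran from 7.75 to 8.25 in WT_CD and from 8.32 to 8.51 in WT_LPD, with no overlap. How often means of other gene sets part these groups was not counted. Of 6 endothelial markers 1 rose (Cdh5, by 0.34), with means from 8.72 to 9.40 and from 9.10 to 9.36. Of the 2 erythroid markers measured of 6 listed, 1 rose (Alas2, by 0.84), with means from 6.62 to 8.85 and from 7.42 to 8.51. None of 6 hepatocyte, 6 Kupffer cell, 3 cholangiocyte or 2 granulocyte markers passed, and the hepatocyte mean ran from 12.89 to 13.06 in WT_CD and from 12.85 to 13.07 in WT_LPD. In these bulk samples, fewer cells of a type and less RNA per cell cannot be told apart, and the part of these markers in the P450 differences was not tested.

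Cyp2j6 belongs to the Cyp2j subfamily, whose enzymes oxidize arachidonic acid and other unsaturated fatty acids. It ran from 7.78 through a median of 8.08 to 8.40 in WT_CD and from 8.62 through 8.72 to 8.81 in WT_LPD. All 8 WT_LPD samples lay above all 7 WT_CD samples, and 0.561% of all genes parted these groups without overlap. The difference was 0.63 ± 0.10 (SE), 1.55-fold, with a limma adjusted p of 9.42e-05. It was 0.56 in array set A alone (adjusted p = 0.00639) and 0.68 in array set B alone (adjusted p = 0.00208).

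WT_CD had the lowest Cyp2j6 median of the 6 groups. The other medians were 8.70 in ATF7HET_CD (8.36 to 8.81), 8.65 in ATF7HET_LPD (8.38 to 8.92), 8.77 in ATF7WT_CD (8.26 to 8.94) and 8.62 in ATF7WT_LPD (8.52 to 9.03). These 4 groups overlapped each other and WT_LPD, and 3 of them, all but ATF7WT_LPD, reached down into the range of WT_CD. The diet difference was 0.03 ± 0.10 in ATF7+/- liver (95% interval -0.17 to 0.22) and 0.11 ± 0.10 in ATF7+/+ liver (95% interval -0.10 to 0.31), and neither passed.

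The upstream sequence of Cyp2j6 is shown because it is the member whose difference passed in both array sets. The 250 bases before its annotated start lie at chr4:96553652-96553901 on the minus strand (RefSeq, GRCm38.p6). Capitals mark the E-box letters CACGTG, 44 bases before the start:
Cyp2j6: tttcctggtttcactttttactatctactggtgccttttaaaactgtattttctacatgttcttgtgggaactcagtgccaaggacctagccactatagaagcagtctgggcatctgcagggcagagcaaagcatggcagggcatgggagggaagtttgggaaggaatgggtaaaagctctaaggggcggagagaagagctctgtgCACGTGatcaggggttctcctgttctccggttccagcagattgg
Of the 32 members with such a window in RefSeq, 1 held these letters (3.12%), against 6.02% of 32851 windows of that length.

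The other Cyp2j members, which lie beside Cyp2j6 on the chromosome, did not pass. Cyp2j5, an abundant liver and kidney form, ran from 10.92 through 11.43 to 11.71 in WT_CD and from 11.56 through 11.74 to 11.95 in WT_LPD, and the groups overlapped. Its difference was 0.32 ± 0.10 (adjusted p = 0.0766). Cyp2j9, which lies between Cyp2j6 and Cyp2j5, ran from 6.98 to 8.58 and from 6.62 to 8.88, a difference of -0.34 ± 0.33 (adjusted p = 0.690).

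Cyp2c55 oxidizes arachidonic acid and is known as a gene that activators of CAR and PXR induce. It ran from 4.76 through 6.76 to 7.51 in WT_CD and from 7.08 through 7.73 to 8.32 in WT_LPD. The groups overlapped, with WT_CD replicate 8 lowest. The difference was 1.19 ± 0.29, 2.28-fold (adjusted p = 0.0115). Array set A gave 2.04 (adjusted p = 1.75e-04) and array set B 0.54 (adjusted p = 0.265). Set A WT_CD samples ran from 4.76 to 6.08 and set B WT_CD samples from 6.76 to 7.51, while WT_LPD ran from 7.19 to 7.77 and from 7.08 to 8.32. Without WT_CD replicate 8 the difference was 0.91 and the adjusted p 0.0627. In ATF7+/- liver it was -0.02 ± 0.28 and in ATF7+/+ liver -0.17 ± 0.29.

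The other Cyp2c genes held both signs. Cyp2c38, which ran from 7.19 through 8.41 to 9.81 in WT_CD and from 5.60 through 7.60 to 8.92 in WT_LPD, differed by -0.99 ± 0.48 (adjusted p = 0.296), and its groups overlapped over most of their range. Cyp2c54 differed by -0.41 ± 0.42 (adjusted p = 0.715). Cyp2c70, which makes muricholic acids from bile acids, differed by 0.37 ± 0.17 (adjusted p = 0.272). Cyp2c29 (0.17), Cyp2c39 (0.15), Cyp2c37 (0.10), Cyp2c68 (0.07), Cyp2c50 (0.04), Cyp2c67 (-0.01) and Cyp2c23 (-0.08) differed less.

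Cyp3a16 is known as a fetal and neonatal form of the Cyp3a enzymes, which hydroxylate steroids and many drugs. It ran from 3.95 through 4.34 to 5.75 in WT_CD and from 4.73 through 6.80 to 9.40 in WT_LPD. The groups overlapped, and 6 of 7 WT_CD samples lay below the lowest WT_LPD sample. The difference was 2.45 ± 0.68 (95% interval 1.08 to 3.83, adjusted p = 0.0310). Since the gene reached the level only through WT_LPD, and 6 of 7 WT_CD samples lie below that level, this is no independent evidence of a change, and no fold is given. Array set A gave 3.02 (adjusted p = 0.0253) and array set B 2.13 (adjusted p = 0.144). The difference missed the threshold when any of 6 samples (WT_CD replicates 6 and 7, WT_LPD replicates 2, 6, 7 and 8) was left out, with values from 2.10 to 2.77 over all samples left out in turn and an adjusted p up to 0.0883. In ATF7+/- liver the difference was -0.04 ± 0.66 and in ATF7+/+ liver -0.09 ± 0.68.

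Cyp3a16 levels in wild-type liver also moved with the Y-linked level. Among samples with a high Y-linked level, the 5 WT_CD samples ran from 3.95 to 4.42 and the 5 WT_LPD samples from 4.73 to 7.60. Among samples with a low Y-linked level, the 2 WT_CD samples were at 4.725 and 5.75 and the 3 WT_LPD samples ran from 7.41 to 9.40. The WT_LPD samples lay above the WT_CD samples in both kinds. Since the gene reached the level only through WT_LPD, this order is no independent evidence of a change either.

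Cyp3a44, a few genes away in the same cluster, is shown beside Cyp3a16 because the windows before the starts of these genes are nearly the same. It ran from 7.88 through 8.25 to 8.96 in WT_CD and from 7.76 through 8.79 to 9.29 in WT_LPD, with overlap, a difference of 0.38 ± 0.20 (adjusted p = 0.330). Its SD over the 46 samples was 0.41. The 250 bases before the start lie at chr5:145469724-145469973 for Cyp3a16 and at chr5:145805875-145806124 for Cyp3a44, both on the minus strand (RefSeq, GRCm38.p6). Capitals mark bases that differ or that lie beyond the aligned stretch:
Cyp3a16: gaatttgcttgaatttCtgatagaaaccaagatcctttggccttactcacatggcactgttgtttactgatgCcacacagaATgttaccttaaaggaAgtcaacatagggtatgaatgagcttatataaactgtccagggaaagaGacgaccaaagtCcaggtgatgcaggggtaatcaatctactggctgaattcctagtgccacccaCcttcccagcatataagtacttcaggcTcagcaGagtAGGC
Cyp3a44: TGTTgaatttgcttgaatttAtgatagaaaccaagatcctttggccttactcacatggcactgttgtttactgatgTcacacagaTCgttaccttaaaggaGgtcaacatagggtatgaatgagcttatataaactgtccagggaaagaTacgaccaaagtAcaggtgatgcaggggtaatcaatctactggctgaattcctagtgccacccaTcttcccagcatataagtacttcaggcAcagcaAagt
Of 246 aligned bases, 236 were identical and 10 differed (95.9% identity). The window of Cyp3a44 held AGGTCA, the nuclear receptor half-site letters, 150 bases before the start, and that of Cyp3a16 held none. Cyp3a11 and Cyp3a16 were 83.3% identical in the same comparison. The probes of such similar genes can bind each other's transcripts, and how far they do was not tested.

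Cyp3a13 lies apart from the other Cyp3a genes, between Pilrb2 and Gjc3. It ran from 10.20 through 10.54 to 11.70 in WT_CD and from 9.60 through 9.99 to 10.36 in WT_LPD, and the groups overlapped. It fell by 0.60 ± 0.16 on the log2 scale (adjusted p = 0.0209). Array set A gave -0.99 (adjusted p = 0.0102) and array set B -0.32 (adjusted p = 0.229). WT_CD replicate 8 was at 11.70 and the next sample at 10.71, and without that replicate the difference was -0.415 with an adjusted p of 0.102. It also missed the threshold without WT_LPD replicate 3 (-0.54, adjusted p = 0.0519) and with median centring (-0.56, adjusted p = 0.0538). Cyp3a13 was lower in samples with a high Y-linked level in all 6 groups (mean difference -0.36), and with that level as a covariate the diet difference was -0.63 (adjusted p = 0.00245). In ATF7+/- liver the difference was 0.02 ± 0.15 and in ATF7+/+ liver -0.24 ± 0.16. The remaining Cyp3a genes did not pass: Cyp3a11, the main adult liver form, differed by -0.15 ± 0.09 and Cyp3a25 by -0.41 ± 0.17 (adjusted p = 0.213).

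When only the WT_CD and WT_LPD samples entered the fit, Cyp2j6 still passed and the other 3 did not: the adjusted p was 0.103 for Cyp2c55, 0.141 for Cyp3a13 and 0.0615 for Cyp3a16.

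**Figure D3:**
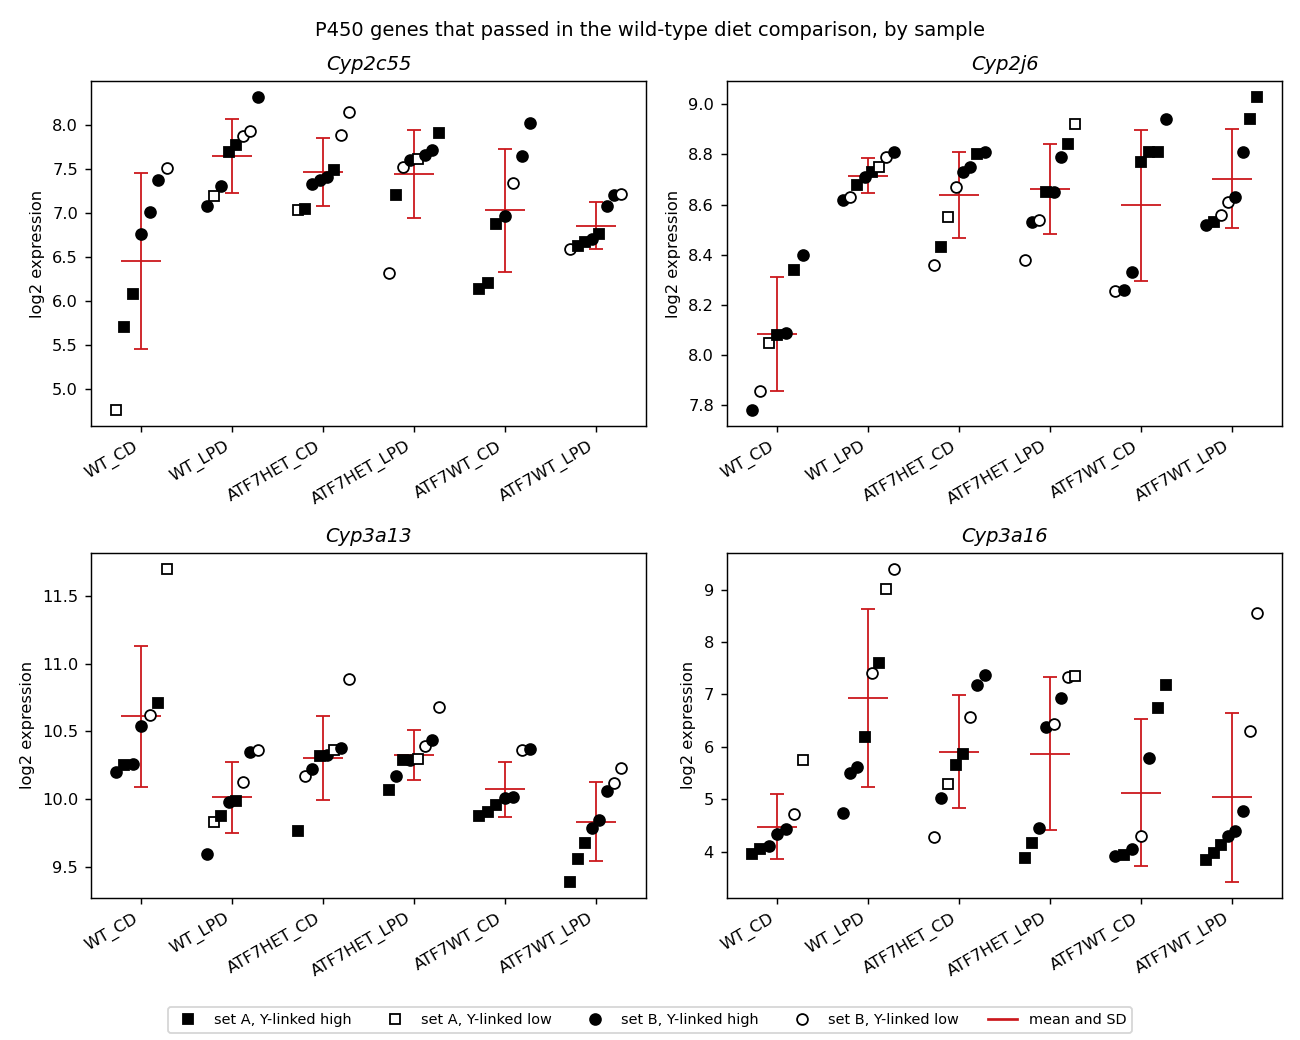
Log2 expression (vertical axes) of the 4 P450 genes that passed in the wild-type diet comparison, in each of 46 samples by group. Squares are array set A and circles set B, filled symbols have a high and open symbols a low Y-linked level, and red bars are the mean and SD of the group. All Cyp2j6 values of WT_CD lie at or below 8.40 and all of WT_LPD at or above 8.62, while the other 3 genes overlap.

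Cyp1a2, the main liver Cyp1 enzyme and a target of the aryl hydrocarbon receptor, came close to the threshold. It ran from 9.33 through 10.76 to 11.44 in WT_CD and from 10.62 through 11.23 to 12.26 in WT_LPD, with overlap. The difference was 0.68 ± 0.20 (95% interval 0.27 to 1.09, adjusted p = 0.0501). Array set A gave 1.19 (adjusted p = 0.00250) and array set B 0.30 (adjusted p = 0.564). Cyp2r1, a vitamin D 25-hydroxylase, differed by 0.44 ± 0.14 (adjusted p = 0.0753). Its set A samples gave 1.02 and its set B samples 0.01. Cyp2d40 differed by 0.41 ± 0.13 (adjusted p = 0.0731).

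The array sets gave unlike counts in wild-type liver. In set A alone 11 of 38 P450 genes passed (15.6% of all genes), 10 higher and 1 lower, and in set B alone 1 passed, Cyp2j6 (4.72% of all genes). With the set as a block 9 passed (9.26% of all genes): the 4 above and Cyp1a2, Cyp2d40, Cyp2j5, Cyp2r1 and Cyp3a25. The sign of the difference was the same in both sets for 20 of 38 P450 genes, against 52.8% of all genes. The difference between the sets was not tested. The mean of 13 clock and clock output genes moved with the sets too. It was 8.61 in WT_CD and 7.77 in WT_LPD in set A, and 8.09 and 8.05 in set B. These genes held both signs, with diet differences in wild-type liver from -1.64 to 0.96 over all samples, so the mean describes no common shift. Their part in the P450 values was not tested.

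In ATF7+/- offspring no P450 gene passed the limma test between the sires' diets, and 0% of all genes did. A p under 0.05 without adjustment was reached by 1 P450 gene, Cyp2a12 (0.14 ± 0.06), and by 1.31% of all genes. The differences ran from -0.07 to 0.52, with 31 of 38 above 0 and a median of 0.06 (all genes 0.00). The share of all genes above 0 was not counted. Cyp2c23, an epoxygenase of arachidonic acid, differed by 0.28 ± 0.17. Cyp2f2 differed by 0.23 ± 0.20 and Cyp2c67 by 0.15 ± 0.13. The groups overlapped in each of these genes: Cyp2c23, for one, ran from 11.17 through 11.56 to 12.17 in ATF7HET_CD and from 11.45 through 11.90 to 12.45 in ATF7HET_LPD.

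In ATF7+/+ offspring no P450 gene passed over all samples either, while 0.00738% of all genes (1 gene) did. An unadjusted p under 0.05 was reached by 3 P450 genes and by 4.59% of all genes. Cyp2u1, which hydroxylates long-chain fatty acids, ran from 7.77 through 8.07 to 9.22 in ATF7WT_CD and from 8.51 through 8.72 to 9.44 in ATF7WT_LPD, with overlap. It differed by 0.62 ± 0.22 (adjusted p = 0.792). Cyp3a25 differed by -0.41 ± 0.17 (adjusted p = 0.986), Cyp2c23 by 0.40 ± 0.18 (adjusted p = 0.988) and Cyp2d40 by 0.24 ± 0.13.

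Whether the diet difference itself differed between genotype labels was tested by interaction. Cyp2j6 was the 1 P450 gene that passed between ATF7+/- and wild-type: its diet difference was smaller in ATF7+/- by -0.60 ± 0.14 (adjusted p = 0.0266), where 0.635% of all genes passed. Array set A gave -0.35 (adjusted p = 0.367) and array set B -0.77 (adjusted p = 0.0219). It missed the threshold when any of 7 samples was left out, with an adjusted p up to 0.0563: WT_CD replicate 1, the averaged WT_CD replicates 4 and 5, WT_CD replicate 8, WT_LPD replicate 8, ATF7HET_CD replicate 1 and ATF7HET_LPD replicates 7 and 8. The comparison of ATF7+/+ with wild-type gave -0.52 ± 0.14 for Cyp2j6 (adjusted p = 0.203).

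No P450 gene passed between ATF7+/+ and wild-type (0.0222% of all genes passing; an unadjusted p under 0.05 in 6 of 38 members and 7.06% of all genes) or between ATF7+/- and ATF7+/+ (0% of all genes passing; an unadjusted p under 0.05 in 1 of 38 members and 2.81% of all genes). Cyp2c55 gave -1.21 ± 0.40 for ATF7+/- minus wild-type and -1.36 ± 0.41 for ATF7+/+ minus wild-type, Cyp3a16 gave -2.49 ± 0.95 and -2.55 ± 0.96, and Cyp3a13 gave 0.62 ± 0.22 and 0.36 ± 0.22. These comparisons share the wild-type samples, and none of these values passed. Cyp3a16 reached the level only through WT_LPD, so its values here are no independent evidence. Over the 6 groups at once, 2 P450 genes passed the F test, Cyp2j6 (adjusted p = 4.26e-04) and Cyp3a13 (adjusted p = 0.0168), where 2.01% of all genes passed.

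Between genotype labels, averaged over the diets, no P450 gene passed over all samples. In ATF7+/- minus wild-type, where 0.00738% of all genes passed, 35 of 38 P450 genes lay above 0, all 11 Cyp2c genes among them. Their median was 0.13 (all genes -0.01). The share of all genes above 0 was not counted, so 35 of 38 is not read as a shift of the family. The sign was the same in both array sets for 24 of 38 genes, against 52.4% of all genes. An unadjusted p under 0.05 was found for 6 of 38 members and 6.82% of all genes. The values were 0.25 ± 0.07 for Cyp2j6 (adjusted p = 0.242), 0.23 ± 0.07 for Cyp2j5 (adjusted p = 0.332), 0.26 ± 0.09 for Cyp2c67 and 0.31 ± 0.11 for Cyp2c68. With the array set as a block 1 member passed, Cyp2j5 (0.24, adjusted p = 0.0482, 0.598% of all genes passing), and in set A alone 1 passed, Cyp2c55 (0.85, adjusted p = 0.0440, 0.953% of all genes passing).

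In ATF7+/+ minus wild-type, 0.0222% of all genes passed. An unadjusted p under 0.05 was found for 12 of 38 members and 12.4% of all genes. Cyp2c67 differed by 0.34 ± 0.10 (adjusted p = 0.109), Cyp2j6 by 0.25 ± 0.07 (adjusted p = 0.114), Cyp2d9 by 0.54 ± 0.16 (adjusted p = 0.116) and Cyp3a13 by -0.36 ± 0.11 (adjusted p = 0.134). These 4 passed with the array set as a block, where 3.40% of all genes passed. In set A alone 19 of 38 P450 genes passed (28.6% of all genes), 15 higher and 4 lower, and in set B alone none passed (0% of all genes). The sign was the same in both sets for 23 of 38 genes, against 48.7% of all genes.

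Cyp2d9, a steroid hydroxylase known for higher levels in adult male mice, shows the pattern of set A. Its set A samples ran from 10.15 to 10.23 in ATF7WT_CD and from 9.94 to 10.19 in ATF7WT_LPD, against 8.39 to 8.78 in WT_CD and 8.61 to 9.47 in WT_LPD. The ATF7+/+ samples of set A lay above the wild-type samples of set A without overlap. The share of all genes that parted so was not counted, and 28.6% of all genes passed this comparison in set A. The Cyp2d9 difference was 1.28 in set A, against 0.03 among set B samples. Cyp2c38 gave 1.94 in set A and 0.23 in set B. Cyp2b13, known for higher levels in adult female mice, gave -1.98 and 0.14. The 3 set A samples of ATF7WT_LPD ran from 5.25 to 6.63, below every other sample. All 6 ATF7+/+ arrays of set A, and 4 of the 6 wild-type arrays of set A, had a high Y-linked level, and the part of that level in these values was not tested.

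**Figure D4:**
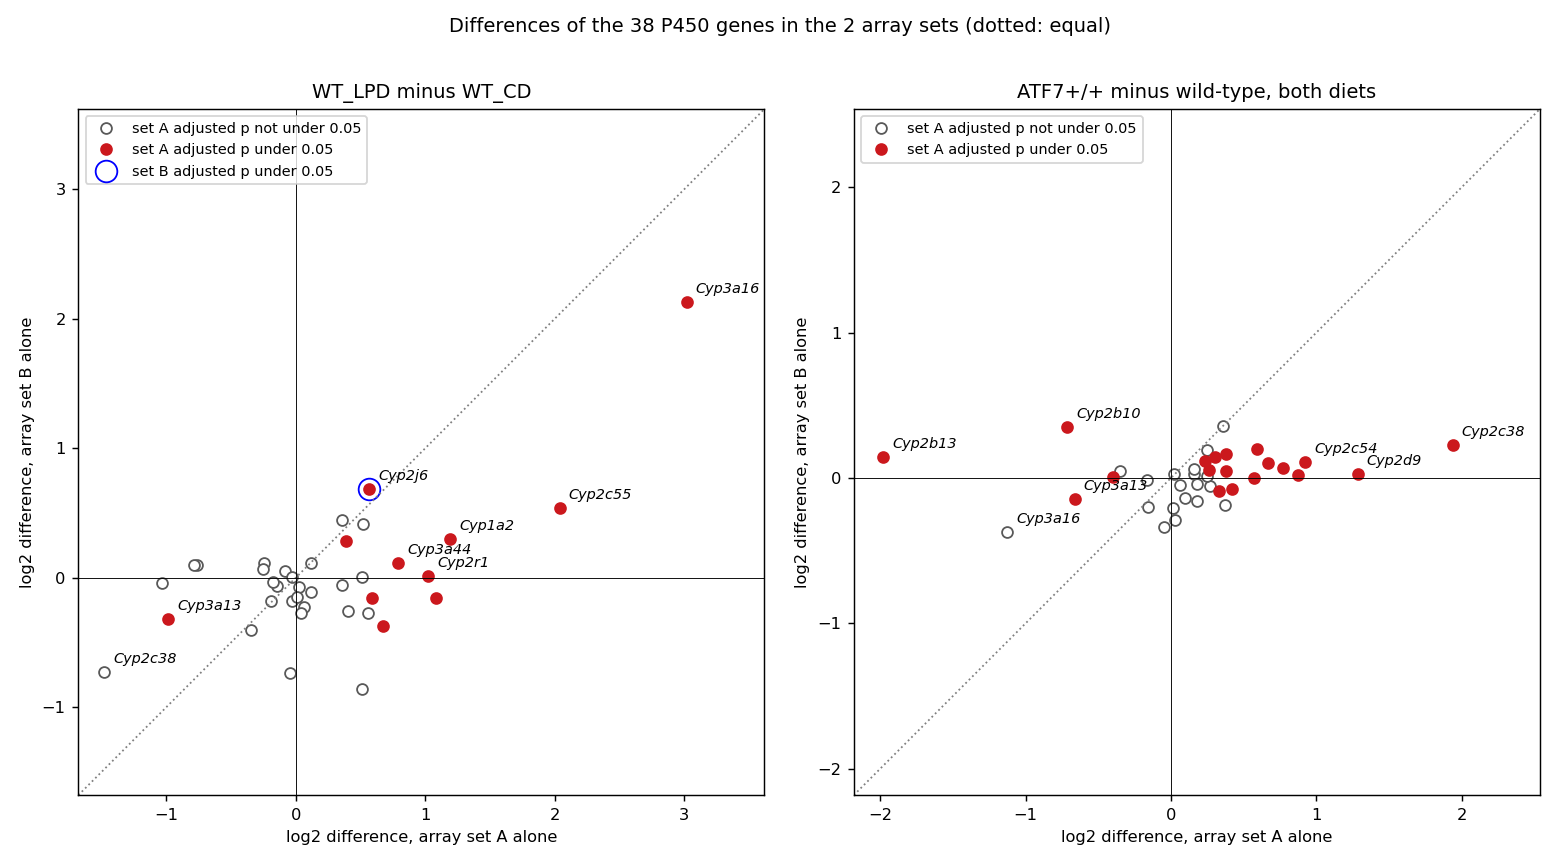
Log2 difference of each of the 38 P450 genes in array set A alone (horizontal) and array set B alone (vertical), for the sire diet in wild-type liver and for ATF7+/+ minus wild-type. Filled red points passed in set A and the blue ring marks the gene that passed in set B. Cyp2j6 lies near the dotted line of equal values in the diet comparison, while the red points of the genotype comparison spread along the horizontal axis from -1.98 to 1.94 with set B values from -0.14 to 0.35.

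ATF7+/- minus ATF7+/+ gave no P450 gene past the threshold over all samples, where 0.155% of all genes passed. An unadjusted p under 0.05 was found for 8 of 38 members and 11.4% of all genes. The values were 0.36 ± 0.11 for Cyp3a13 (adjusted p = 0.141), -0.88 ± 0.33 for Cyp2c38 (adjusted p = 0.251), 0.98 ± 0.37 for Cyp2b13 (adjusted p = 0.259) and 0.51 ± 0.20 for Cyp2c55 (adjusted p = 0.272). With the array set as a block 1 member passed, Cyp3a13 (0.36, adjusted p = 0.0450, 3.24% of all genes passing). In set A alone 14 of 38 passed (22.8% of all genes) and in set B alone none (0% of all genes).

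Several P450 genes differed between samples with a high and with a low Y-linked level. The samples with a low level numbered 1 in ATF7WT_CD, 2 in WT_CD and in ATF7WT_LPD, and 3 in each other group. In both ATF7+/+ groups all of them were in array set B. Set A minus set B was -0.80 for Cyp2b13 and -0.69 for Cyp2b10, and the part of the sets in the differences below was not tested. Cyp2b13 ran from 5.25 through 8.76 to 10.27 in the 32 samples with a high Y-linked level and from 9.01 through 9.84 to 10.58 in the 14 with a low level, a mean difference of -1.38 (high minus low). The mean was lower in the high samples in all 6 groups. Cyp2b10, the classic target of CAR, ran from 6.35 through 7.53 to 8.85 and from 7.53 through 8.55 to 9.95, a mean difference of -1.04, also with the lower mean in all 6 groups. Cyp2d9 went the other way in all 6 groups, from 8.60 through 9.51 to 10.23 in high samples and from 8.39 through 8.97 to 9.36 in low samples, a mean difference of 0.64.

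Cyp2a22 (-0.60) was also lower in the high samples in all 6 groups, and Cyp2u1 (0.39) higher in all 6. Cyp3a16 (-1.48), the widest difference of all members, was lower in the high samples in 4 of 6 groups. It reached the level only through WT_LPD, so this rank is no independent evidence of a difference. Cyp2c38 (0.63) was higher in 4 of 6, and Cyp2c37 (-0.46) was lower in 5 of 6. The kinds of samples overlapped in each of these genes. No test was run, since the samples were parted by a measured level.

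**Figure D5:**
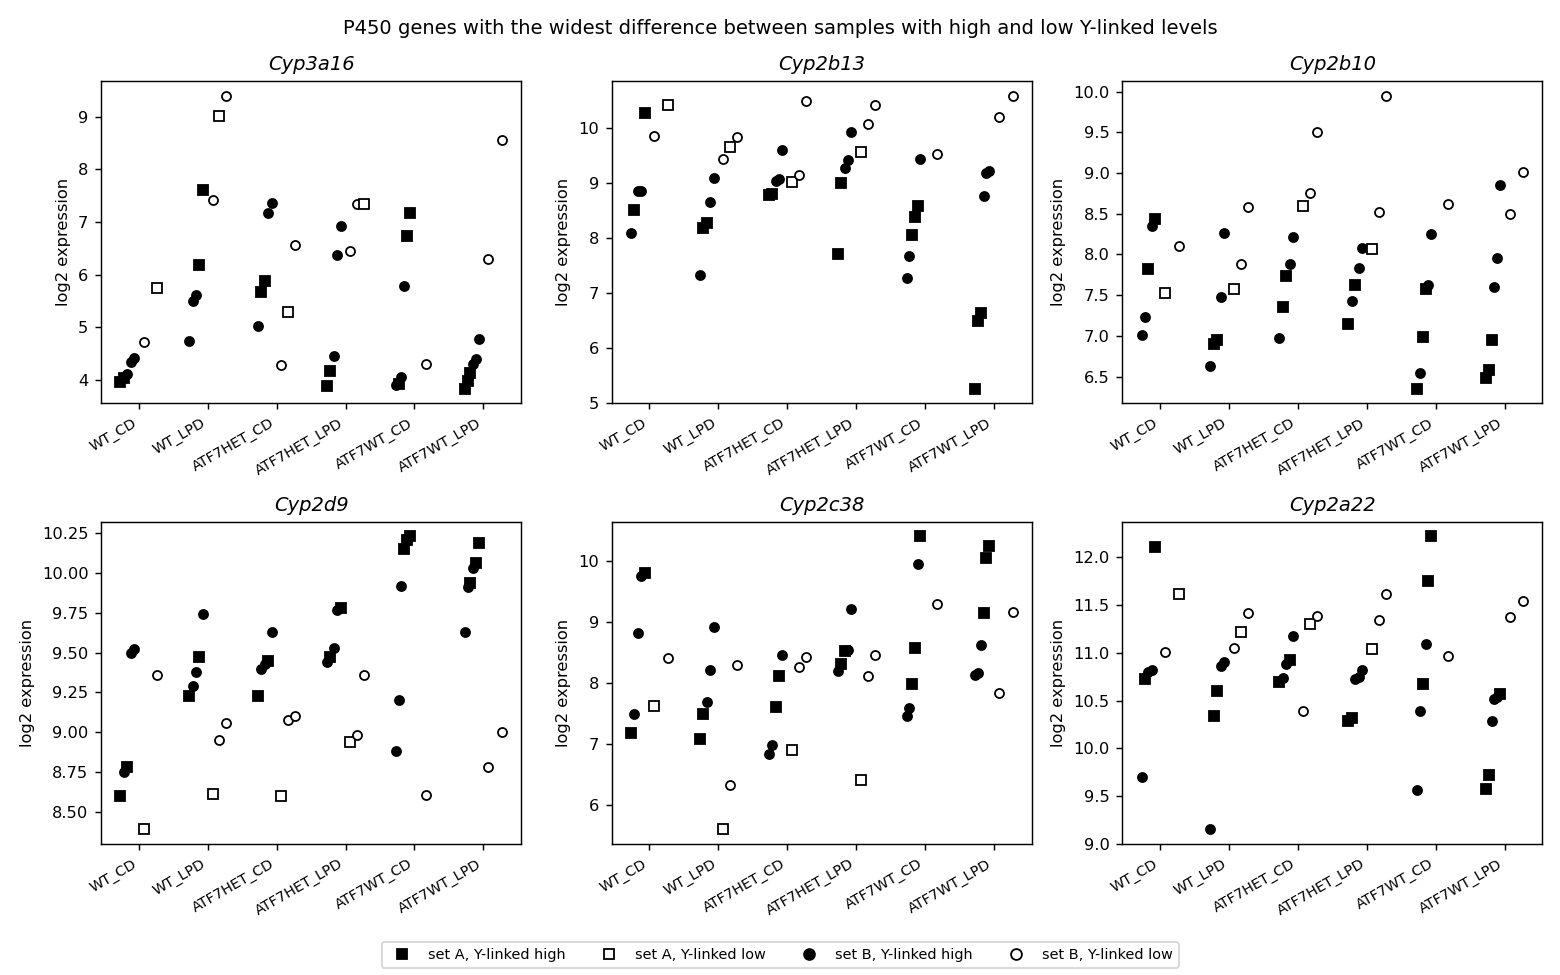
Log2 expression (vertical axes) of the 6 P450 genes with the widest difference between samples with a high (filled) and a low (open) Y-linked level, by group; squares are array set A and circles set B. Open symbols lie mostly above filled ones for Cyp2b13 and Cyp2b10 and below them for Cyp2d9.

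Members also differed between the array sets. Set A minus set B gave -0.90 for Cyp2c54, -0.80 for Cyp2b13, -0.69 for Cyp2b10, -0.67 for Cyp2c37 and -0.65 for Cyp2f2, and it gave 0.85 for Cyp2j9, 0.70 for Cyp2d13 and 0.52 for Cyp3a25. The set A mean was lower in all 6 groups for Cyp2f2, Cyp2c23, Cyp2c29, Cyp2c39, Cyp2c70, Cyp2d22 and Cyp2d26. It was higher in all 6 for Cyp2d13, Cyp3a25, Cyp2j5 and Cyp2w1. The labels give no reason for the sets.

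Genes that serve or regulate P450 enzymes were described from lists of related genes. In the wild-type diet comparison 2.78% of all genes passed as higher and 0.812% as lower. Of 3 measured electron suppliers, 1 rose in WT_LPD: Cyb5r3, the reductase of cytochrome b5, by 0.46 ± 0.10 (adjusted p = 0.00548), beside Cyb5a at -0.10 and Cyb5b at 0.53 (adjusted p = 0.172). Por was not among the genes tested. Of 10 heme genes 1 rose: Urod, a step of heme synthesis, by 0.28 ± 0.07 (adjusted p = 0.0121), while Alas1, the rate-limiting step, differed by -0.54 ± 0.24 (adjusted p = 0.240). Of 13 clock and clock output genes 1 fell: Tef, which drives P450 and CAR genes in liver, by 0.77 ± 0.23 on the log2 scale (adjusted p = 0.0468). The list medians were 0.46, 0.14 and -0.34, beside 0.00 for all genes.

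None of 13 measured P450 regulators passed in wild-type liver, and their median was -0.07. Nr1i3 differed by -0.46 ± 0.31 (adjusted p = 0.510), Nr1i2 by -0.08 ± 0.13, Ahr by 0.05 ± 0.17 and Stat5b, which carries growth hormone signals to sex-biased P450 genes, by 0.39 ± 0.12 (adjusted p = 0.0666). In ATF7+/- liver none passed. In ATF7+/+ liver 1 of 13 passed, Onecut1, a liver transcription factor, at 1.28 ± 0.24 (adjusted p = 0.0493). It was the 1 gene of all tested that passed there, and leaving out each of the 46 samples in turn gave 33 fits with no gene past the threshold; array set B alone gave none. Bcl6, a transcriptional repressor, was at -1.60 ± 0.34 (adjusted p = 0.0855).

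The upstream windows of the 32 members with a RefSeq entry were searched on both strands for 7 motifs: CACGTG, given above for Cyp2j6, and 6 others, given here with the share of members and of all 32851 windows that hold them. TATAAA stood in 17 members (53.1%, all windows 12.4%) and AGGTCA in 10 (31.2%, all windows 14%). GCGTG, the core of the aryl hydrocarbon receptor site, stood in 4 (12.5%, all windows 28.2%) and TTANGTAA, the site of Tef and Dbp, in 1, Cyp2c38 (3.12%, all windows 2.06%). TTCNNNGAA, the STAT site, and TCACNCCAC, a sterol element, stood in 0 (all windows 7.02% and 1.05%). Of the 4 genes that passed in wild-type liver, Cyp3a16 and Cyp2c55 held TATAAA.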

How the data were processed

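Biotin-labelled cDNA of liver RNA was hybridized to Affymetrix gene arrays. The table deposited for the series holds log2 intensities of 35556 probe sets on 48 arrays. The submitters' processing notes name RMA and Affymetrix Expression Console as the tools the authors used; a version and a genome build are not given in the sources used here. Values were used as deposited. Arrays have no depth; their number limits the precision. Of the probe sets, 21789 carry 1 symbol, 1621 several, and 12146 are not listed in the annotation. Per gene the single-symbol probe set with the highest mean was kept if that mean reached the 40th percentile (5.46), which left 13542 genes.

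Within a group, arrays whose difference on variable genes was under 1.5 times that on stable genes were averaged (ratios 1.29 and 1.29, other pairs 1.92 to 5.20), which left 46 samples. Array sets come from the first principal component of 5591 unlisted probe sets. Group means were fitted with limma 3.58.1 in R 4.3.3 over all 6 groups; tests were two-sided, with Benjamini-Hochberg adjustment over all genes at 0.05. The fit was tested on simulated data. Differences are low protein minus control, or as named, with the model's SE. Promoters were read with Biopython 1.88 in Python 3.11.15, and figures drawn with matplotlib 3.10.9.

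The members, gene lists, motifs and tests were chosen with earlier results of these data known. Genes named with values are those that passed; where fewer than 3 passed, the smallest p up to 4; the highest mean of each larger subfamily; the 5 largest and 3 smallest SDs; and the genes at the level. Others were named after their values were seen. Same-numbered samples of the 2 diets were compared by their deviations from group means. These correlated in all 8 pairs of ATF7+/- (r from 0.18 to 0.74) and of ATF7+/+ (0.27 to 0.70). In wild-type they did so in 2 of 8 pairs (-0.48 to 0.50). Every ATF7+/- and ATF7+/+ pair lay within a single array set, while the wild-type pairs with a negative r crossed the sets. Each ATF7+/- and ATF7+/+ pair also shared its Y-linked level. Which of a shared set, a shared Y-linked level and a pairing by number goes with these correlations was not tested. The main fit used no pairing, and fits with the number as a block are given below.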

Additional observations from a re-analysis of the deposited data

Results flagged for a closer look

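Over 25 P450 genes in 6 groups (150 sets of values), 19 had a sample far from the others of its group. The rule flags about 1 in 20 sets of independent normal values. These sets share samples, and the genes were partly picked by their spread, so 19 cannot be weighed against that rate. WT_CD replicate 8 was high in Cyp3a13 (11.70, others 10.20 to 10.71) and Cyp3a16 (5.75, others 3.95 to 4.72) and low in Cyp2f2 (11.65, others 12.34 to 12.81). WT_CD replicate 2 was low in Cyp2e1 (12.58), Cyp2j5 (10.92) and Cyp3a25 (11.57). ATF7WT_CD replicate 5 was low in 4 genes: Cyp1a2 (10.46, others 11.20 to 11.70), Cyp2a12 (11.48), Cyp2d40 (7.26) and Cyp2j5 (10.94).

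WT_LPD replicate 3 was high in Cyp2d40 (8.91) and low in Cyp2e1 (12.73), and WT_LPD replicate 6 was low in Cyp2c54 (7.89, others 9.26 to 10.33). ATF7HET_LPD replicate 6 was high in Cyp2a12 (12.03) and low in Cyp2c38 (6.41, others 8.12 to 9.22), replicate 8 of that group was low in Cyp2c55 (6.32, others 7.20 to 7.91), and replicate 1 was high in Cyp3a25 (12.46). ATF7WT_LPD replicate 1 was low in Cyp2a12 (11.52) and Cyp2c23 (11.78).

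The diet difference of Cyp2j6 was smaller in ATF7+/- than in wild-type offspring by an interaction of -0.60 ± 0.14 (limma adjusted p = 0.0266), the 1 such difference among the P450 genes that passed.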

How the results depend on the processing

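The number of P450 genes that passed moved most with the array sets. In the wild-type diet comparison (4 genes) it was 1 with only the groups compared, 9 with the array set as a block, 11 in set A alone, 1 in set B alone and 10 with both the set block and a Y-linked covariate, and 2 to 7 when each sample was left out in turn (2 without WT_CD replicate 8, 7 without ATF7WT_CD replicate 5). In set A alone it was 2 for the ATF7+/+ diet comparison (0.436% of all genes passing). Set A also gave 2 for the interaction of ATF7+/- with wild-type (1 gene in the main fit, 2.07% of all genes). It gave 7 for that of ATF7+/+ with wild-type (3.08%) and 1 for ATF7+/- minus wild-type (0.953%). Set A gave 19 for ATF7+/+ minus wild-type (28.6%) and 14 for ATF7+/- minus ATF7+/+ (22.8%). For the 6 groups at once it gave 27 (2 genes in the main fit, 33.6% of all genes). With the set as a block the number was 1, 4, 1 and 7 for the last 4 comparisons (0.598%, 3.40%, 3.24% and 9.43% of all genes). With the set block and the Y-linked covariate it was 3 for the interaction of ATF7+/- with wild-type, 2 for ATF7+/- minus wild-type and 7 for the 6 groups. For the 6 groups it was 1 in set B alone (1.73% of all genes) and 4 without both near-identical pairs. Counts in this section that stand without a share of all genes are not read as results about the family. Leaving out each sample gave 0 to 1 for the interaction of ATF7+/- with wild-type, 0 to 1 for ATF7+/+ minus wild-type (1 without ATF7WT_CD replicate 5) and 2 to 4 for the 6 groups. The cause of these changes was not tested; fits of 1 set or of fewer groups use fewer samples.

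A replicate block, taken by number within a genotype label or across all groups, left 5 genes past the threshold between the sires' diets in wild-type liver, 0 in the other 2 diet comparisons and 1 in the interaction of ATF7+/- with wild-type, and the block moved no count by over 1.5 times. Of the values of named genes, 2135 kept direction and side of the threshold, 24 lost and 23 gained the threshold, and 2 changed sign, neither past the threshold: the interaction of ATF7+/- with ATF7+/+ was 0.093 for Cyp2u1 in set A and -0.073 for Cyp2b9 in set B. The other alternatives (quantile normalization, no filter on low values, averaging a gene's probe sets, median centring, a trended and robust prior, all 48 arrays as samples, the Y-linked covariate) kept every count of P450 genes within 1.5 times. The block with the covariate and the fit without the near-identical pairs were chosen after seeing the data. The number of arrays limits what can be seen, and Cyp3a16 lay near the lowest levels of the array in many samples.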
